A study of Saccharomyces cerevisiae with 3 samples.

Results

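The genes described here encode the enzymes and the activator of lysine synthesis in *Saccharomyces cerevisiae*: *LYS1*, *LYS4*, *LYS5*, *LYS9*, *LYS12*, *LYS14*, *LYS20* and *LYS21*. They were taken by gene symbol from the array's annotation, and all 8 were found among the 5449 yeast genes measured. *LYS2* was left out because the labelled strain lacks it. Total RNA of a wild type (WT), an *spt3* deletion strain (*spt3Δ*) and an *spt8* deletion strain (*spt8Δ*) was hybridized to the Yeast Genome 2.0 array of Affymetrix, and each strain was read on 1 array. All 3 strains are labelled BY4742, and the study describes both deletions as replacements of the gene with a *KanMX* cassette. Cells grew in YPD, a rich medium, at 30 °C and were taken in exponential phase. Without replicate arrays no test between strains was possible, and the values compare these 3 arrays only.

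Budding yeast makes lysine from 2-oxoglutarate and acetyl-CoA through the α-aminoadipate pathway, a route found in fungi and not in animals. Lys20 and Lys21 are isozymes of homocitrate synthase, the entry step, which lysine itself inhibits. Lys4 and Lys12 carry homocitrate to 2-oxoadipate in mitochondria, and an aminotransferase then gives α-aminoadipate. Lys2, once activated by Lys5, reduces α-aminoadipate to its semialdehyde, and Lys9 and Lys1 turn the semialdehyde into saccharopine and then lysine. Lys14 is a zinc cluster activator of the *LYS* genes that responds to the semialdehyde, while Gcn4 activates amino acid genes in general. Spt3 and Spt8 are subunits of the coactivator complex SAGA that contact TATA-binding protein.

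The strain was read first, since the strain list of the study gives a *MATa* genotype with *MET15* deleted and *LYS2* not listed as deleted, whereas BY4742 is a *MATα* strain that lacks *LYS2* and keeps *MET15*. The signal is the brightness of a probe set on a linear scale, and background is the 95th percentile of the signals that the same array gave on its fission yeast (*S. pombe*) probe sets. *LYS2*, the α-aminoadipate reductase gene, had signals of 4.17 in WT, 2.80 in *spt3Δ* and 7.20 in *spt8Δ*. None of them was above background, which was 7.17, 6.67 and 8.61. *MET17*, the sulfhydrylase gene also called *MET15*, had signals of 6686, 7739 and 8377. *STE3*, the receptor gene of *MATα* cells, had signals of 3727, 1859 and 2544, whereas *STE2*, the receptor gene of *MATa* cells, had 48.3, 29.5 and 50.7. The other *MATα*-specific genes, *MF(ALPHA)1* and *MF(ALPHA)2*, lay between 3001 and 9816, and the other *MATa*-specific genes, *STE6*, *MFA1*, *MFA2* and *BAR1*, between 16.4 and 50.4. On all 3 arrays these markers were therefore those of the labels, and the lysine pathway was read in cells with no detectable *LYS2* transcript. *URA3* was not above background on any array. *LEU2*, deleted according to the strain list of the study, had low signals of 9.50, 18.2 and 34.0. These were above background on all 3 arrays, and the *spt8Δ* signal was 3.57-fold over WT. That fold rests on a WT signal near the floor, under the WT background of 10.4 at the 99th percentile. *HIS3* had signals of 1589, 2638 and 1774, and whether its probe set lies inside the deleted part of the gene was not examined.

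**Figure D1:**
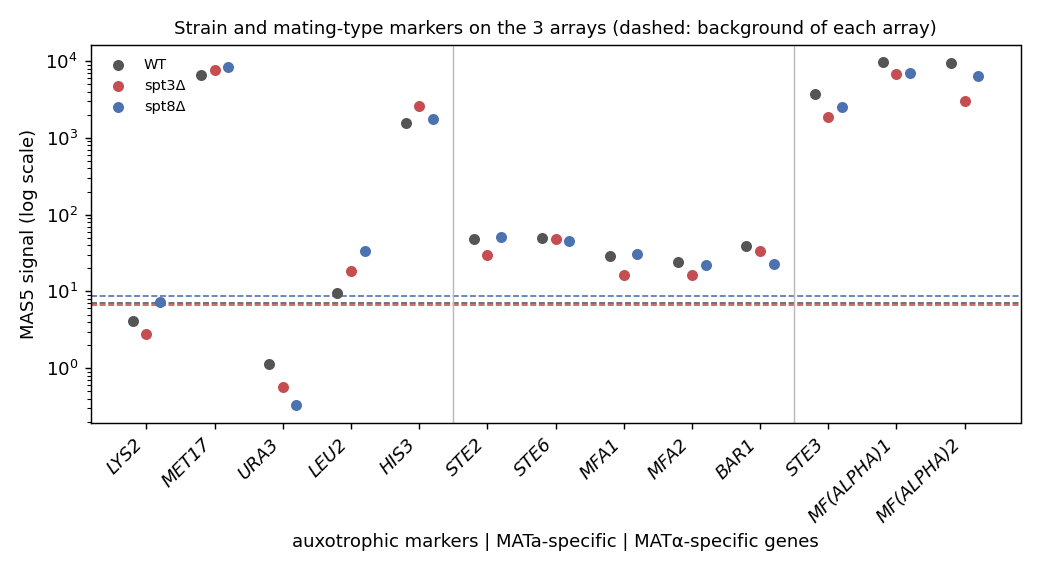
Signals (log scale) of auxotrophic and mating-type markers on the WT, *spt3Δ* and *spt8Δ* arrays, 1 point per array, with the background of each array as a dashed line. *LYS2* lies below background on all 3 arrays, at 4.17, 2.80 and 7.20, while *MET17* and the *MATα*-specific genes are bright.

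The deleted genes matched the labels: *SPT3* in *spt3Δ* lay at least 43.2-fold under WT and *SPT8* in *spt8Δ* at least 40.2-fold, bounds set by the background since the mutant signals were not above it. Over all genes the median log2 ratio to WT was 0.15 in *spt3Δ* and 0.067 in *spt8Δ*, so ratios are also given relative to these medians. A gene was called lower or higher if its log2 ratio was over 2 SD away from the average log2 ratio of the array. The study also set its limits by 2 SD, without stating the scale of the SD. Its lower limits lay nearer to WT than those given here in both mutants. It counted as many lower genes as here in *spt3Δ* and more in *spt8Δ*. The limits were −1.26 and 1.47 in *spt3Δ* and −0.91 and 1.01 in *spt8Δ*. No probe set of a lysine gene is one that the array design shares between genes, and each gene has 1 probe set. All 8 genes were above background on every array.

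None of the 8 lysine genes passed the threshold in either mutant. Over all genes, 2.73% were called lower and 0.973% higher in *spt3Δ*, and 2.13% lower and 1.63% higher in *spt8Δ*, so a list of 8 without a call is near this background. In *spt3Δ*, 6 of the 8 signals were higher and 2 lower than in WT. The median of their log2 ratios was 0.16, and that of all genes 0.15. Relative to the median of all genes, 4 lay above and 4 below. In *spt8Δ*, 5 signals were higher and 3 lower, their median was 0.035 beside 0.067 for all genes, and relative to the median of all genes 3 lay above and 5 below. In *spt3Δ* the lowest log2 ratio was −0.037 and the highest 0.89, and in *spt8Δ* they were −0.59 and 0.49. The WT array is shared by these comparisons, which are not independent. Farthest from the median of all genes lay *LYS21* in *spt3Δ* and *LYS20* in *spt8Δ*, both genes of homocitrate synthase.

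**Figure D2:**
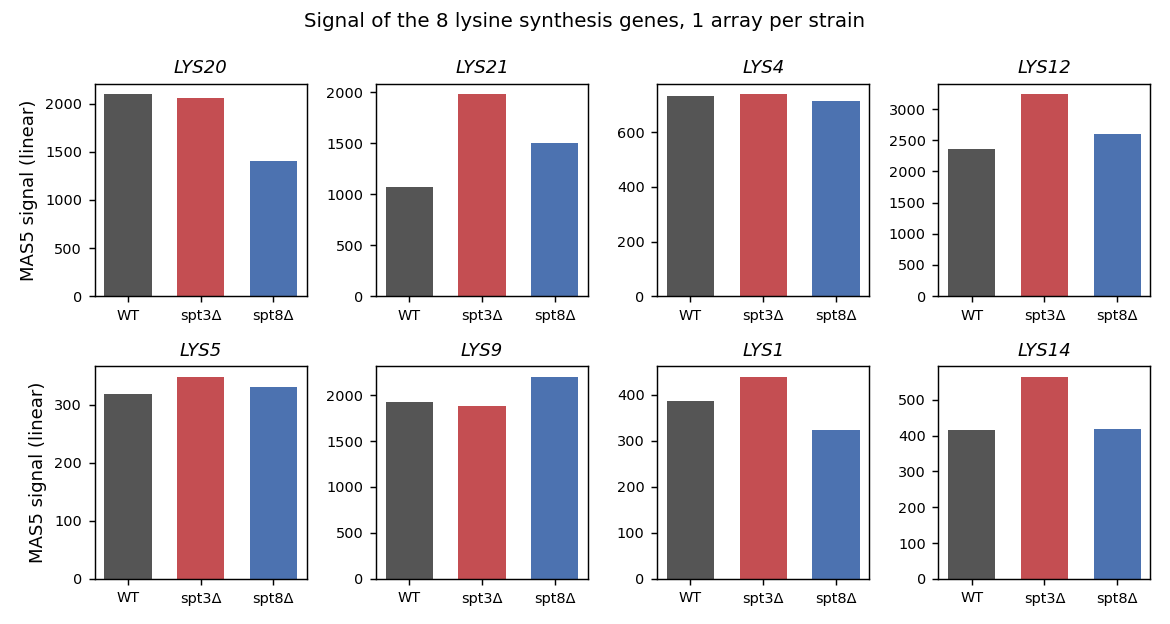
Signal (linear scale from 0, a separate axis for each gene) of the 8 lysine synthesis genes in pathway order, with 1 bar per array. *LYS21* is higher in both mutants than in WT, *LYS20* is lowest in *spt8Δ*, and the bars of *LYS4* and *LYS5* are nearly level.

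The entry step differed between its isozyme genes. *LYS21* had a signal of 1070 in WT, 1984 in *spt3Δ* and 1503 in *spt8Δ*. It was thus lowest in WT, with *spt3Δ* 1.85-fold and *spt8Δ* 1.41-fold above it. *LYS20* had signals of 2104 in WT, 2061 in *spt3Δ* and 1400 in *spt8Δ*. Its *spt3Δ* signal lay next to that of WT (1.02-fold lower), and its *spt8Δ* signal was 1.50-fold lower than WT. In log2 units the change of *LYS21* exceeded that of *LYS20* by 0.92 in *spt3Δ* and by 1.08 in *spt8Δ*. These differences compare changes and do not depend on a shift common to all genes of an array.

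Set against all genes, the ratio of *LYS21* ranked 350 from the highest of 5449 in *spt3Δ* and 460 in *spt8Δ*. In *spt3Δ*, 15.0% of all genes lay at least as far from the array median as *LYS21*, and in *spt8Δ* 18.0% did. *LYS20* ranked 5207 in *spt8Δ*, where 7.76% of genes lay at least as far from the median, and 3464 in *spt3Δ*, where 72.7% did. A scale for scatter comes from the 47 genes with several probe sets, whose log2 ratios ranged, between probe sets of 1 gene, over 0.21 at the median in *spt3Δ* and 0.20 in *spt8Δ*. The 90th percentile of these ranges was 1.11 and 1.36, larger than the gap between *LYS21* and *LYS20*. These values cover scatter within arrays and not that between cultures. With a threshold of 2 robust SD, *LYS20* alone was called lower in *spt8Δ*, where 5.62% of all genes were.

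**Figure D3:**
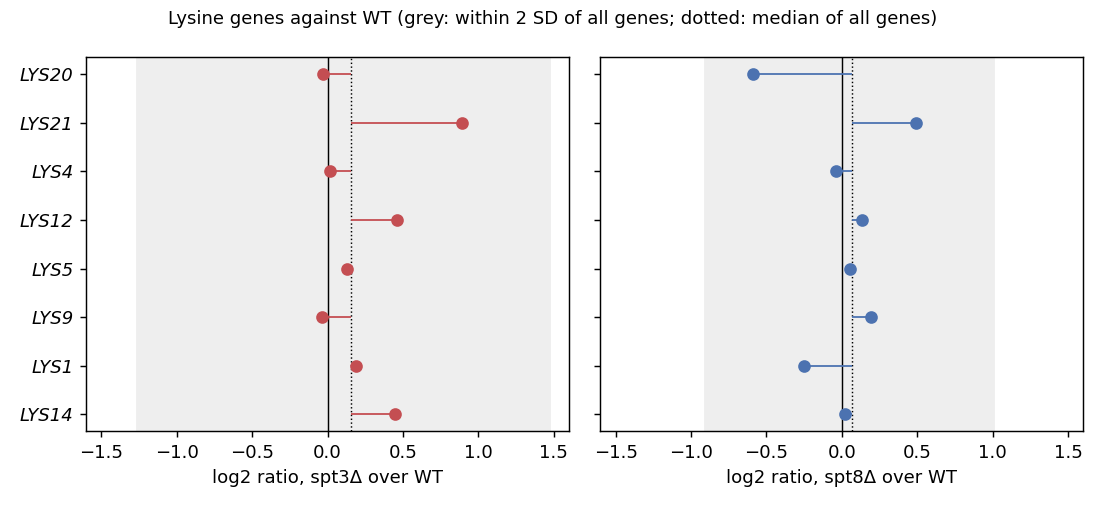
Log2 ratio of each lysine gene to WT in *spt3Δ* (left) and *spt8Δ* (right), 1 point per gene, joined to the median of all genes (dotted line); the grey band spans the limits of 2 SD. All points lie inside the bands, with *LYS21* at 0.89 and 0.49 and *LYS20* at −0.030 and −0.59.

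The mitochondrial steps were close to WT or modestly higher. *LYS4*, encoding homoaconitase, an iron-sulfur enzyme, had signals of 733 in WT, 741 in *spt3Δ* and 714 in *spt8Δ*. Its 3 signals thus lay within 0.053 log2 units of each other. *LYS12*, encoding homoisocitrate dehydrogenase, had signals of 2362, 3248 and 2594. It was highest in *spt3Δ*, at 1.37-fold over WT, and 1.10-fold over WT in *spt8Δ*. Relative to the median of all genes the log2 ratio of *LYS12* was 0.31 in *spt3Δ* and 0.068 in *spt8Δ*, and that of *LYS4* was −0.14 and −0.11.

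The later steps also stayed within the threshold. *LYS5*, encoding the phosphopantetheinyl transferase that activates Lys2, had signals of 319 in WT, 349 in *spt3Δ* and 331 in *spt8Δ*. Relative to the median of all genes its log2 ratios were −0.027 and −0.015, and 96.3% and 95.6% of all genes lay at least as far from that median. *LYS9*, encoding saccharopine reductase, had signals of 1925 in WT, 1877 in *spt3Δ* and 2203 in *spt8Δ*, so it was highest in *spt8Δ*, at 1.14-fold over WT. *LYS1*, encoding saccharopine dehydrogenase, had signals of 386 in WT, 439 in *spt3Δ* and 324 in *spt8Δ*. WT lay between both mutants, which were 1.14-fold higher and 1.19-fold lower. *LYS9* and *LYS1*, of consecutive steps, thus lay on opposite sides of WT, in *spt8Δ* under every setting and in *spt3Δ* not after quantile or loess normalization, where the log2 ratio of *LYS1* went from 0.19 to −0.062 and −0.12.

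*LYS14*, the activator gene of the pathway, had signals of 414 in WT, 565 in *spt3Δ* and 420 in *spt8Δ*. WT and *spt8Δ* were thus nearly equal, at 1.01-fold, and *spt3Δ* was 1.36-fold higher, a log2 ratio of 0.45, or 0.17 after loess normalization.

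Between the mutants, 7 of the 8 genes had a higher signal in *spt3Δ* than in *spt8Δ*, as did 58.9% of all genes. The median log2 ratio of *spt3Δ* to *spt8Δ* was 0.36 for the lysine genes and 0.086 for all genes. The ratio was largest for *LYS20*, at 0.56, followed by *LYS1* at 0.44, *LYS14* at 0.43, *LYS21* at 0.40 and *LYS12* at 0.32. *LYS5* and *LYS4* lay at 0.075 and 0.053, and *LYS9* alone was lower in *spt3Δ*, at −0.23. Centred on the median of all genes, 5 of the 8 were higher in *spt3Δ*, and the median was 0.28.

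Genes of steps beside the pathway held a large change, that of *ARO9*. The list comprised the aminotransferases Aro8 and Aro9 and the mitochondrial oxodicarboxylate carriers Odc1 and Odc2. Of its 4 measured members, 1 was called lower in each mutant, none was called higher and 3 were neither. Among all genes, 2.73% were called lower in *spt3Δ* and 2.13% in *spt8Δ*. *ARO9*, an aminotransferase gene of aromatic amino acid breakdown, had signals of 776 in WT, 83.1 in *spt3Δ* and 178 in *spt8Δ*. The mutant signals were 9.34-fold and 4.36-fold lower than WT. *ARO9* was past the threshold under all 8 alternative settings, of which median centring cannot change a call. *ARO8*, whose enzyme also acts on α-aminoadipate, had signals of 4907, 3846 and 4083, 1.28-fold and 1.20-fold lower than WT. *ODC2*, whose carrier moves 2-oxoadipate and 2-oxoglutarate across the inner mitochondrial membrane, had signals of 826, 1792 and 1163. It was 2.17-fold higher in *spt3Δ*, inside the limit of 2.78-fold, and 1.41-fold higher in *spt8Δ*. Its isoform gene *ODC1* had signals of 285, 297 and 321, at log2 ratios of 0.059 and 0.17.

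Genes of 2-oxoglutarate supply, the precursor of the pathway, had lower signals in *spt3Δ* for 5 of 6 members, against 2115 of all 5449 genes. None of the 6 was past the threshold, and their median log2 ratio was −0.36, beside 0.15 for all genes. *ACO1*, the aconitase of the tricarboxylic acid cycle, had signals of 6163 in WT, 2929 in *spt3Δ* and 4750 in *spt8Δ*. It was lowest in *spt3Δ*, at 2.10-fold under WT, and 1.30-fold under WT in *spt8Δ*. *IDH1*, a subunit gene of isocitrate dehydrogenase, had signals of 3139, 1734 and 2870, which lay 1.81-fold and 1.09-fold under WT in the mutants. *IDH2*, the gene of the other subunit, had log2 ratios of −0.43 and −0.19. In *spt8Δ* 3 of the 6 signals were lower and 3 higher, while 2241 of all 5449 genes were lower. None of the 6 was past the threshold there, and their median was −0.063, beside 0.067 for all genes. The sixth gene in *spt3Δ*, *IDP1*, encodes an NADP-dependent isocitrate dehydrogenase and had log2 ratios of 0.30 and 0.33.

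Of 8 genes of lysine uptake, storage and charging, 1 was called lower in *spt3Δ*, where 2.73% of all genes were. None was called in *spt8Δ*, and the list medians were −0.28 in *spt3Δ* and −0.060 in *spt8Δ*. *LYP1*, the lysine permease gene, had nearly level signals of 2423 in WT, 2408 in *spt3Δ* and 2564 in *spt8Δ*. *KRS1*, the cytosolic lysyl-tRNA synthetase gene, was also level, at 5962, 5958 and 5780. The called gene was *ALP1*, a basic amino acid permease gene with low signals of 25.6, 8.03 and 16.6, of which the *spt3Δ* value was close to the background of 6.67. It was 3.19-fold lower in *spt3Δ*, and with 50 added to each signal its log2 ratio of −1.67 became −0.38 and was no longer past the threshold. *VBA3*, of a family of vacuolar basic amino acid transporters, is read by a probe set shared between genes, with signals of 11.1, 16.2 and 21.7, and was 1.96-fold higher in *spt8Δ*. Of the regulators, none was called in either mutant, and the list medians of 0.26 and 0.092 became 0.0026 and −0.0074 after loess normalization. Loess also took the medians of all genes from 0.15 and 0.067 to −0.0057 and −0.0026. *GCN4* had signals of 9123, 7413 and 7918, 1.23-fold and 1.15-fold lower than WT, but its log2 ratio of −0.30 in *spt3Δ* became 0.0059 under that setting. *MKS1*, also known as *LYS80*, a regulator of the retrograde pathway that controls 2-oxoglutarate genes, had signals of 166, 281 and 193, 1.69-fold and 1.16-fold higher.

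**Figure D4:**
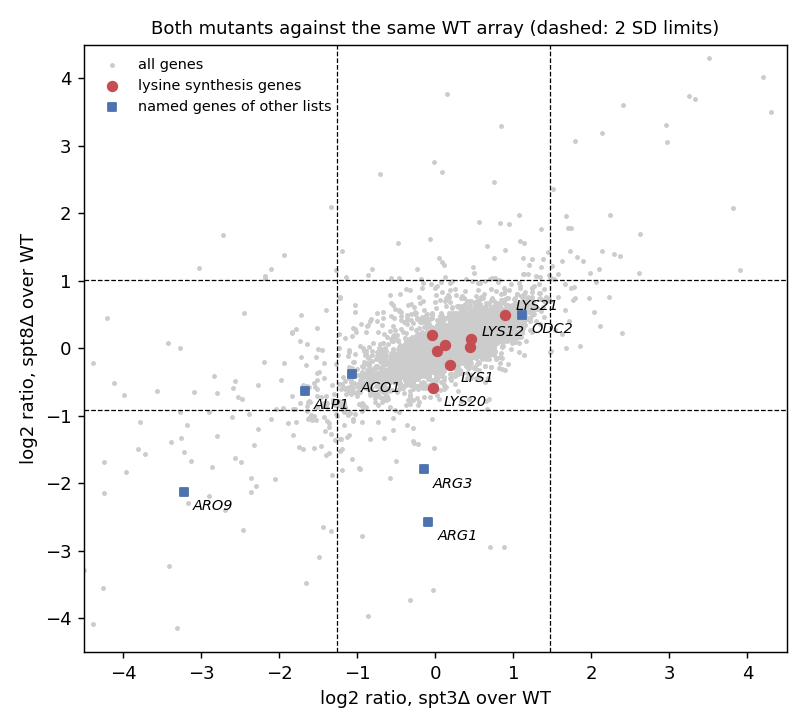
Log2 ratios to WT of all genes in *spt3Δ* (horizontal) and *spt8Δ* (vertical), with the limits of 2 SD dashed. The lysine genes are red circles, and a selection of genes from the other lists are blue squares. The squares were picked among genes with large ratios and do not show the spread of those lists. Outside the axes lie 8 genes. Both axes use the same WT array, so the slope of the cloud is partly built in; the lysine genes lie inside all limits, and *ARG1* and *ARG3* lie below the *spt8Δ* limit.

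The lysine genes were set beside genes of other amino acids that Gcn4 also activates. Of 7 measured arginine synthesis genes, 2 were called lower in *spt8Δ* and none in *spt3Δ*, where 2.13% and 2.73% of all genes were, respectively. The arginine median log2 ratios were −0.51 in *spt8Δ* and −0.091 in *spt3Δ*. All 7 had lower signals in *spt8Δ* than in WT, against 3 of the 8 lysine genes and 2241 of all 5449 genes. *ARG1*, the argininosuccinate synthase gene, had signals of 2596 in WT, 2437 in *spt3Δ* and 437 in *spt8Δ*. *ARG3*, the ornithine carbamoyltransferase gene, had 190, 172 and 54.9. *ARG4*, the argininosuccinate lyase gene, had 2155, 3459 and 1286, so it was highest in *spt3Δ* and lowest in *spt8Δ*. In *spt8Δ* these 3 genes lay below *LYS20*, the lowest lysine gene at a log2 ratio of −0.59, with *ARG1* at −2.57, *ARG3* at −1.79 and *ARG4* at −0.74. Of the other lists, *ARO9* at −2.12, *LEU4* at −0.71, *HIS4* at −0.63 and *ALP1* at −0.63 did so too. None of the 10 branched-chain genes was called, with medians of −0.15 in *spt3Δ* and −0.10 in *spt8Δ*. *LEU4*, which encodes an α-isopropylmalate synthase, an enzyme related to homocitrate synthase, had signals of 5712, 4549 and 3492 and was 1.64-fold lower in *spt8Δ*, and its isozyme gene *LEU9* had signals of 1825, 2072 and 1758. None of the 10 histidine and tryptophan genes was called, with medians of 0.17 and −0.029, and *HIS4*, a histidine synthesis gene, was 1.55-fold lower in *spt8Δ*. *ARG4*, *LEU4* and *HIS4* were each called lower in *spt8Δ* under 2 of 8 alternative settings, an offset of 50 and a threshold of 2 robust SD. No test of a difference between these lists was possible with 1 array per strain.

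**Figure D5:**
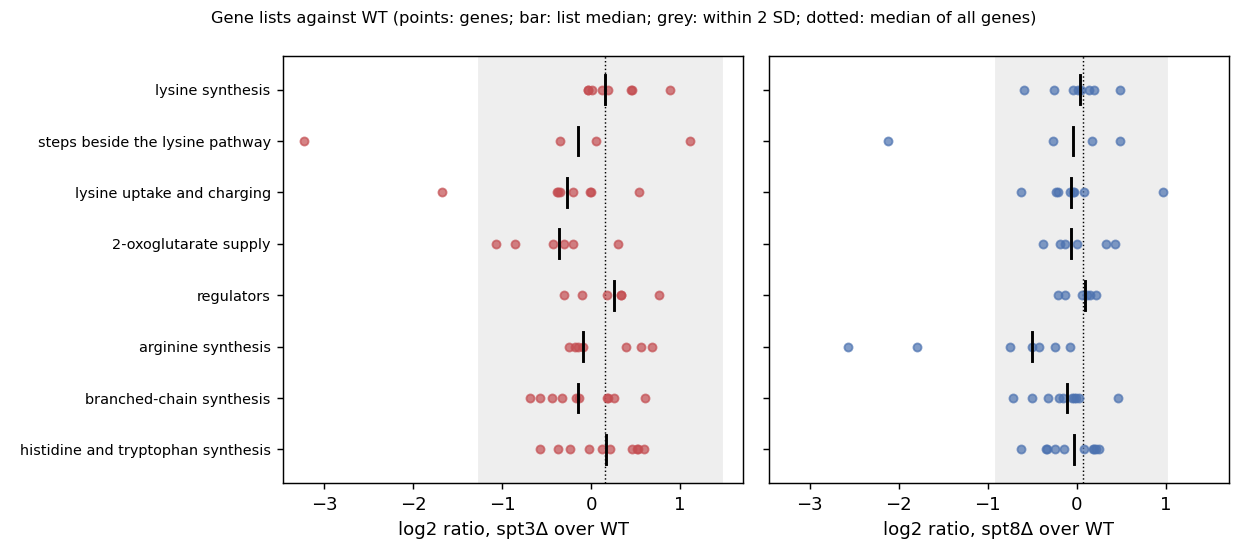
Log2 ratios to WT of the genes of each list in *spt3Δ* (left) and *spt8Δ* (right), with the list median as a black bar, the limits of 2 SD in grey and the median of all genes dotted. The lysine median lies near that of all genes in both panels, while the arginine median is −0.51 in *spt8Δ*.

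*LYS21* had the largest sum of absolute ratios among the lysine genes, and the genes nearest to it in both log2 ratios were *MLC2*, a myosin light chain gene, *YLR287C*, *HSP82*, a gene of the chaperone Hsp90, *YPL077C* and *RRP15*, a gene of ribosomal RNA processing. Their distances from *LYS21* were 0.013 to 0.028 in log2 units over the 3 arrays. These genes were picked as the nearest in these same ratios, so small distances were built in and say nothing about function. In chromosomal order, taken from the R64 gene table, *LYS21* lies beside *CDC53*, which encodes a cullin. *CDC53* had signals of 492 in WT, 839 in *spt3Δ* and 689 in *spt8Δ*, at log2 ratios of 0.77 and 0.49, next to 0.89 and 0.49 for *LYS21*. *STF1*, the neighbor on the other side, had signals of 410, 525 and 478, at log2 ratios of 0.36 and 0.22. The measured neighbor of *LYS20*, the ATPase inhibitor gene *INH1*, had log2 ratios of −0.10 and −0.18. Other neighbors differed from their lysine gene. *MRH1*, beside *LYS14*, had log2 ratios of −0.79 and −0.47, against 0.45 and 0.019 for *LYS14*. *MGA2*, beside *LYS1*, had 0.70 and 0.41, against 0.19 and −0.25 for *LYS1*. Whether neighbors change together was not tested. Of the 16 genes directly beside the 8 lysine genes, 13 were measured and none was called in either mutant, and their medians were 0.18 and 0.073.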

How the data were processed

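Total RNA (200 ng) of 3 strains was labelled and hybridized to Yeast Genome 2.0 arrays. The deposited intensity values are MAS5 signals, which the authors made with Microarray Suite 5.0 at default settings and scaled to trimmed means of 500.4, 500.3 and 500.3. The submitters' processing notes also name Affymetrix Expression Console. Of 10928 probe sets, 5498 named *S. cerevisiae* and 1746 *S. pombe* genes, 3683 were unnamed and 1 with several genes was left out. Log2 signals were averaged per gene (5449 genes), and ratios to WT were taken with no offset and no filter on low signal. The number of arrays limits the precision.

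Members and lists were chosen with earlier results of these data known. Named genes were all members, strain markers, called genes of each list, up to 3 further genes a list by size of ratio, and the 5 genes nearest to the member farthest from WT. Further list genes, such as *LYP1*, *KRS1*, *IDP1* and *LEU9*, and chromosomal neighbors were picked after their values were seen. A gene of the list of steps beside the pathway is not reported here. Alternatives were a background filter, quantile and loess normalization (span 0.3), median centring, an offset of 50, a call at 2-fold or 2 robust SD, unshared probe sets, and background at the 99th percentile. Steps were tested on simulated data, with Python 3.11.15, numpy 2.4.6, pandas 2.3.3 and statsmodels 0.14.6.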

Additional observations from a re-analysis of the deposited data

How the results depend on the processing

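No lysine gene was called in *spt3Δ* under any of the 8 alternatives, and in *spt8Δ* 1 gene, *LYS20*, was called with a threshold of 2 robust SD and none under the other 7. Median centring, 1 of the 8, moves the limits together with the ratios and cannot change a call of any gene. The median log2 ratio of the lysine genes in *spt3Δ* was 0.16 and became −0.084 after loess normalization, while that of all genes went from 0.15 to −0.0057. Of 96 values of single lysine genes under the 6 alternatives that keep the calling rule, 7 moved by more than the median range between probe sets of 1 gene. All 7 were in *spt3Δ* after quantile or loess normalization, in *LYS1*, *LYS4*, *LYS5* and *LYS14*, and the cause was not tested. The background filter and the unshared probe sets left every lysine ratio as it was. Median centring shifted the ratios by 0.15 in *spt3Δ* and 0.067 in *spt8Δ*, less than the median ranges of 0.21 and 0.20. The count of 96 thus includes values that could not move. The gap between *LYS21* and *LYS20* lay between 0.83 and 0.92 in *spt3Δ* and between 0.99 and 1.08 in *spt8Δ*. The count of strain markers above background on all arrays was 11 of 13 with background at the 95th percentile and 10 at the 99th. Over all genes, 149 were lower and 53 higher in *spt3Δ*; these became 229 and 226 with a threshold of 2-fold and 265 and 96 with 2 robust SD. In *spt8Δ* 116 and 89 became 306 and 220 with 2 robust SD, and with 50 added to each signal 136 and 59, which raised the share of lower calls from 56.6% to 69.7%. The alternatives for the other lists and for *spt3Δ* against *spt8Δ* were chosen after seeing the data. *ACO1* in *spt3Δ* was called under 3 of 8 settings and *ODC2* under 2, and in *spt8Δ* *VBA3* was called under 4 of 7, *ARG4*, *LEU4* and *HIS4* under 2 of 8 each and *ALP1* under 1; *ALP1* in *spt3Δ* lost its call under 1. No paired analysis was possible because each strain has 1 array.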
